A study of Homo sapiens with 9 samples.

Results

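The genes described here are 6 matrix metalloproteinase genes, MMP1, MMP2, MMP3, MMP7, MMP10 and MMP14, and 3 genes of their tissue inhibitors, TIMP1, TIMP2 and TIMP3. They were taken by symbol, as 9 of the 58884 Ensembl genes listed for each sample. The set was chosen by symbol with earlier FPKM results of these libraries known, among them the difference of MMP1 between PM2.5 and control. Differences of these 9 genes from control are therefore given as descriptions, without a p-value of their own. Other gene lists were also chosen with earlier results known, and their adjusted p-values carry that limit. The cells were HK-2, an immortalised human line derived from renal proximal tubule epithelium and grown here in serum-free keratinocyte medium with bovine pituitary extract and EGF. RNA-seq libraries formed 3 groups of 3. Control cells were labelled untreated, and the protocol describes a vehicle for controls. The PM2.5 group was exposed to fine airborne particulate matter for 24 h. The third group received lactoferrin, a secreted protein that binds iron and is found in milk, for 6 h and then PM2.5 for 18 h. It is called lactoferrin then PM2.5. Lactoferrin was given at 40 mg/ml and the particulate matter at 1 mg/ml according to the series text, units that could not be checked. No group received lactoferrin alone, and the exposed groups differed in their time in PM2.5, so pretreatment and exposure time cannot be told apart.

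Matrix metalloproteinases are zinc-dependent endopeptidases that cut collagens, laminins, fibronectin and cell-surface proteins. Most are secreted as inactive zymogens and become active when their propeptide is removed by plasmin, furin or another metalloproteinase, while membrane-type members sit on the cell surface. TIMPs bind active enzymes in a tight complex and block them. In the kidney this balance is studied in turnover of the tubular basement membrane and in fibrosis. The data here are RNA levels and do not measure zymogen activation, secretion or enzyme activity.

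Values are FPKM, fragments per kilobase of exon scaled to the assigned library, so levels can be compared between genes. The values corresponded to 15313451 to 18820465 assigned fragments per library. Among tested genes the libraries deviated from the mean of the other 2 of their group by a root mean square of 0.278 to 0.384 on the log2 scale. The largest deviation, 0.384, was shared by replicate 3 of control and replicate 1 of lactoferrin then PM2.5. The labels do not say whether replicates came from separate cultures, so the spread behind each p-value is that of these samples and could be technical. In the marker check, VIM, KRT8, KRT18 and PAX8 were expressed, whereas 12 of 22 proximal tubule markers, among them LRP2, CUBN, AQP1 and HNF4A, stayed below 1 FPKM in every library. The summed tubule markers ranged from 927 to 1070 FPKM in control, 594 to 612 with PM2.5 and 586 to 676 with lactoferrin then PM2.5. CD24 carried most of that drop, from a mean of 395.7 to 88.98 FPKM with PM2.5, and without it the sums were 586 to 622, 504 to 517 and 502 to 588 FPKM. PAX8 was higher with PM2.5 (52.2 and 82.3 FPKM in mean). Fibroblast markers summed to 58.0 to 61.5, 69.1 to 70.5 and 53.1 to 57.7 FPKM, with 8 of 12 below 1 FPKM throughout, PDGFRB among them. LUM made up most of these sums, and without it they were 15.4 to 17.5, 4.88 to 5.24 and 4.39 to 4.95 FPKM. All 8 endothelial markers, PECAM1 included, and 10 of 12 leukocyte markers, PTPRC included, were below 1 FPKM in all libraries. Endothelial markers summed to at most 0.511 FPKM and leukocyte markers to at most 2.34 FPKM in any library. Keratinocyte and squamous markers summed to 30.6 to 33.2, 34.7 to 38.9 and 35.7 to 51.2 FPKM, with KRT1, KRT5 and KRT6A listed at 0. The part of these marker shifts in the results below was not tested. In bulk RNA, fewer cells expressing a gene and less RNA per cell cannot be told apart.

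Promoter sequences are shown for MMP7, MMP10 and MMP14. MMP7 and MMP10 lie in the same MMP cluster on chromosome 11, and their RNA levels differed from control in opposite directions. MMP14, elsewhere in the genome, was higher in all exposed libraries. Each sequence is the 250 bases before the RefSeq start (GRCh38.p14), 5′ to 3′ on the gene's strand. Capitals mark the AP-1 motif TGAGTCA (or its reverse complement TGACTCA) and the TATA motif TATAAA, and the 2 motifs do not overlap. They lie at chr11:102530748-102530997 (minus strand) for MMP7, chr11:102780629-102780878 (minus strand) for MMP10 and chr14:22836335-22836584 (plus strand) for MMP14.
MMP7: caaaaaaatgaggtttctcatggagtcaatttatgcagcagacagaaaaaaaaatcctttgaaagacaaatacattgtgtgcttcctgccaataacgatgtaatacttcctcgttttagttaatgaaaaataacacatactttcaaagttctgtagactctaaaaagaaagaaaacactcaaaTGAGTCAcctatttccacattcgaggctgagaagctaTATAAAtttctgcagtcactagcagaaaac
MMP10: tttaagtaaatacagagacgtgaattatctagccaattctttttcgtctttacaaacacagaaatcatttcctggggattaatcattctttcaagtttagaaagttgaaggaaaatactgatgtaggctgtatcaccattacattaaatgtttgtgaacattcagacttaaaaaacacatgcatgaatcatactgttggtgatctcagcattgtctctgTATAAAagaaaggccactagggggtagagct
MMP14: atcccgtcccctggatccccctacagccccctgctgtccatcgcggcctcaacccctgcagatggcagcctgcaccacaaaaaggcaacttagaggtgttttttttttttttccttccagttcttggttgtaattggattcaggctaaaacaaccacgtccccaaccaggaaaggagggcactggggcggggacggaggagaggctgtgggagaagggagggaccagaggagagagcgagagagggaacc
The MMP7 window held 1 AP-1 motif, 67 bases before the start, and TATAAA 30 bases before it. The MMP10 window held TATAAA 31 bases before the start and no AP-1 motif. The windows of MMP14, TIMP1 and TIMP3 held neither. No promoter sequence was available for MMP1, MMP2, MMP3 and TIMP2, so these genes were not searched for either motif. Among all 35116 promoter windows of this length in the table, with both strands searched for AP-1 and the gene's strand for TATAAA, 4.2% held the AP-1 motif and 6.8% TATAAA. A match describes letters and is not a bound site.

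MMP1 encodes interstitial collagenase, which makes the first cut in fibrillar collagens (ENSG00000196611, GRCh38 chr11:102789920-102798160, minus strand). It measured 7.36, 6.50 and 7.71 FPKM in the control libraries, 171, 151 and 151 with PM2.5, and 235, 241 and 258 with lactoferrin then PM2.5. The 3 groups did not overlap, and control was lowest. Among the 14454 tested genes MMP1 ranked 4834 to 5587 by level in the control libraries, 172 to 195 with PM2.5 and 93 to 150 with pretreatment. The PM2.5 mean, 157.6 ± 11.5 FPKM (SD, n = 3), was 21.9 times the control mean of 7.19 ± 0.62, and single pairs of libraries gave ratios from 19.6 to 26.3. On the log2(FPKM + 0.5) scale used for every fitted difference, PM2.5 was 4.32 ± 0.10 (SE) above control. WTAPP1, a pseudogene on the opposite strand, shares 7.6% of the MMP1 exon bases. The strand setting of the counting is not given in the sources used here, but WTAPP1 itself reached at most 0.119 FPKM.

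MMP3 encodes stromelysin 1, which cuts proteoglycans, laminin and fibronectin and can activate other metalloproteinases, pro-MMP1 among them (ENSG00000149968, chr11:102835801-102843803, minus strand). It was listed at 0 in all 3 control libraries, and at 2.49, 2.19 and 1.78 FPKM with PM2.5. With lactoferrin then PM2.5 it measured 4.16, 4.59 and 4.42 FPKM. MMP3 RNA was therefore seen in all 6 exposed libraries and in none of the controls. The exposed values correspond to 64 to 95 rebuilt fragments with PM2.5 and 142 to 161 with pretreatment. A count of 0 allows up to 3 fragments, which is 0.0957, 0.0885 and 0.084 FPKM in the control libraries, for counting error only. No fold against control is given.

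MMP10 encodes stromelysin 2, close in sequence and substrates to stromelysin 1 (ENSG00000166670, chr11:102770503-102780628, minus strand). It measured 0.148, 0.137 and 0.130 FPKM in control, 0.733, 0.285 and 0.355 with PM2.5, and 0.936, 0.596 and 0.578 with lactoferrin then PM2.5. Each control value rests on 4 rebuilt fragments, the PM2.5 values on 24, 9 and 11, and the pretreated values on 31, 18 and 16. All exposed libraries were above all controls, while the exposed groups overlapped and replicate 1 was the highest of each. PM2.5 was 0.54 ± 0.22 (SE) above control on the log2 scale, where the added 0.5 shrinks a gene this low, and the ratio of the means was 3.3. MMP3 and MMP10 passed the filter on low values, 0.5 FPKM in at least 3 libraries, only through the exposed groups.

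MMP7 encodes matrilysin, a small epithelial metalloproteinase without the hemopexin domain that is secreted by injured tubule cells (ENSG00000137673, chr11:102520508-102530753, minus strand). It differed from control in the opposite direction from MMP1, MMP3 and MMP10. The controls measured 48.1, 40.8 and 36.0 FPKM, the PM2.5 libraries 26.4, 28.8 and 25.6, and the pretreated libraries 17.9, 14.8 and 14.5. The 3 groups did not overlap, with control highest and lactoferrin then PM2.5 lowest. The means were 41.6 ± 6.05, 26.9 ± 1.66 and 15.7 ± 1.91 FPKM (SD, n = 3 each), so that PM2.5 was 35.4% and lactoferrin then PM2.5 62.2% below control. The log2 difference between PM2.5 and control was -0.66 ± 0.12 (SE).

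MMP2, the gene of gelatinase A, an enzyme made mainly by mesenchymal cells, was near the lower limit (ENSG00000087245, chr16:55389700-55506691, plus strand). It measured 0.389, 0.578 and 0.548 FPKM in control, 0.342, 0.249 and 0.205 with PM2.5, and 0.113, 0.260 and 0.216 with lactoferrin then PM2.5. Each exposed library was below each control library. With 0.5 FPKM reached in only 2 libraries MMP2 did not pass the filter and has no fitted value. The values rest on 29 to 47 rebuilt fragments in control and 10 to 31 in the exposed libraries.

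MMP14 encodes the membrane-type enzyme MT1-MMP, a cell-surface collagenase and the activator of pro-MMP2 (ENSG00000157227, chr14:22836557-22849027, plus strand). It measured 37.8, 39.5 and 39.3 FPKM in control and 100.1, 92.2 and 96.6 with PM2.5. With lactoferrin then PM2.5 it measured 64.6, 99.9 and 103 FPKM, and replicate 1 was the low one. All exposed libraries were above all controls. The PM2.5 mean was 2.48 times the control mean, and the 95% interval of the log2 difference ran from 0.91 to 1.59.

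TIMP1 encodes a secreted inhibitor of most soluble metalloproteinases that is often raised in injured tissue (ENSG00000102265, chrX:47582313-47586789, plus strand). It was the most abundant of the 9 genes in control, with 93.3, 81.4 and 73.6 FPKM. PM2.5 libraries measured 110, 103 and 102 FPKM, and pretreated libraries 143, 146 and 126. The 3 groups did not overlap, but the steps were small: the mean with PM2.5 was 1.27 times control (log2 difference 0.30 ± 0.11, SE), and that with lactoferrin then PM2.5 was 1.67 times control (0.71 ± 0.11).

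TIMP2 encodes the inhibitor that also serves as the bridge between MT1-MMP and pro-MMP2 (ENSG00000035862, chr17:78852977-78925387, minus strand). Its control values were 33.4, 34.7 and 32.7 FPKM, its PM2.5 values 37.2, 35.7 and 36.0, and its pretreated values 26.3, 31.9 and 38.03. PM2.5 was 0.06 ± 0.11 (SE) above control, with a 95% interval of -0.18 to 0.31. The libraries of lactoferrin then PM2.5 spanned both other groups, from the lowest value in replicate 1 to the highest in replicate 3. TIMP3, the gene of the matrix-bound inhibitor (ENSG00000100234, chr22:32801701-32863043, plus strand), was listed at 0 in all 9 libraries. MRPL53, a mitochondrial ribosomal protein gene, was also listed at 0 in all 9 libraries, so a 0 throughout is not read here as absence of the RNA.

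**Figure D1:**
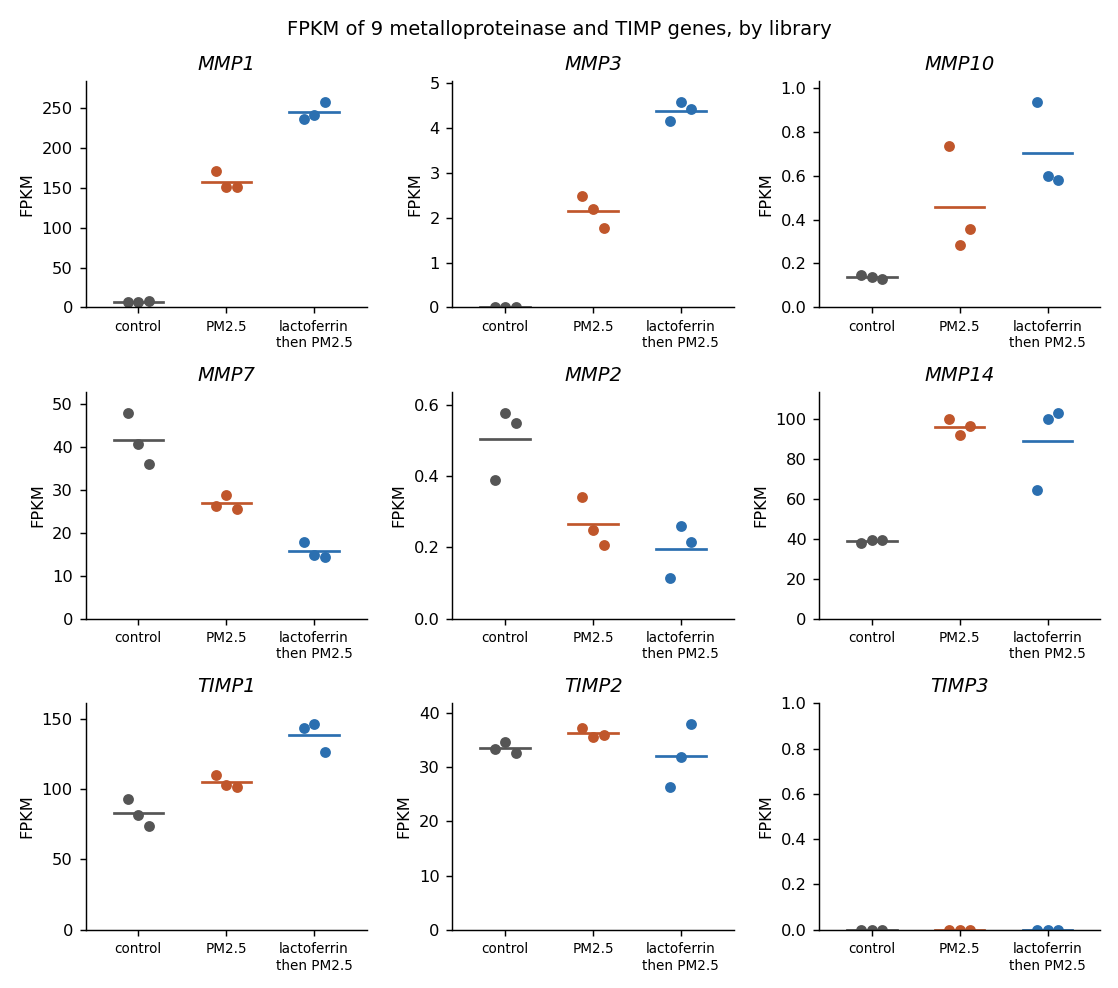
FPKM of the 9 genes in each library, 1 panel per gene with its own linear axis from 0. Points are libraries and horizontal bars are group means (n = 3). MMP1 lies between 6.50 and 7.71 in control, 151 and 171 with PM2.5, and 235 and 258 with lactoferrin then PM2.5. MMP7 is highest in control, and TIMP3 is at 0 throughout.

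The order of levels differed between the groups, which is a description. In control it was TIMP1, then MMP7 and MMP14, whose ranges overlapped, then TIMP2, MMP1, MMP2, MMP10 and MMP3. With PM2.5 it was MMP1, TIMP1, MMP14, TIMP2, MMP7 and MMP3, with MMP10 and MMP2 last and overlapping. The lowest TIMP1 value with PM2.5, 102 FPKM, was close to the highest MMP14 value, 100.1. Lactoferrin then PM2.5 kept that order of means, and no neighbours in it overlapped: the lowest TIMP2 value, 26.3, was above the highest MMP7 value, 17.9, and the lowest TIMP1 value, 126, above the highest MMP14 value, 103.

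Of the 9 genes 7 passed the filter. Against control, 4 of the 7 were past an adjusted p of 0.05 with PM2.5 (limma, Benjamini-Hochberg over all tested genes), beside 35.1% of all tested genes. MMP1, MMP3 and MMP14 were higher, beside 18.7% of all tested genes, and MMP7 was lower, beside 16.4%. With lactoferrin then PM2.5 against control it was 6 of 7, beside 38.5%, with MMP10 and TIMP1 added as higher. MMP10 was not past the threshold without replicate 3 of control and replicate 1 of lactoferrin then PM2.5 together, at a log2 difference of 0.75. The libraries of PM2.5 and control did not overlap for any of the 7, beside 53.6% of all tested genes. For lactoferrin then PM2.5 and control they did not overlap for 6 of 7, beside 47.5%. MMP3 and MMP10 passed the filter only through exposed libraries, so their direction was tied to the filter. These counts also rest on the contrast with which the genes were chosen, and nothing is read from them.

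The make-up of metalloproteinase RNA is a sum over the 23 MMP genes measured. It was 139 ± 8.17 FPKM in control, 321 ± 14.8 with PM2.5 and 389 ± 31.7 with lactoferrin then PM2.5 (SD, n = 3 each). MMP1 made up 5.19% ± 0.67 of it in control, 49.0% ± 1.28 with PM2.5 and 63.0% ± 3.02 with lactoferrin then PM2.5. MMP7 went the other way, from 29.9% to 8.40% and 4.09%, and so did MMP24, from 27.8% to 8.18% and 6.21%. A share of the sum also falls when MMP1 adds to it. In mean FPKM with PM2.5, MMP7 was 35.4% and MMP24 32.2% below control. MMP14 held 28.1%, 29.99% and 22.8%. The summed TIMPs were 116 ± 10.2, 141 ± 5.58 and 171 ± 7.11 FPKM.

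The ratio of MMP1 to the summed inhibitors rests on TIMP1 and TIMP2, since TIMP3 is listed at 0. It was 0.0581, 0.0560 and 0.0725 in the control libraries. It measured 1.16, 1.09 and 1.095 with PM2.5, and 1.39, 1.35 and 1.57 with lactoferrin then PM2.5. MMP1 RNA was below the sum of TIMP1 and TIMP2 in each control library and above it in each of the 6 exposed libraries, with PM2.5 ratios close to 1. Any TIMP3 RNA not listed would lower these ratios. The ratio of MMP14 to TIMP2, the pair that assembles on pro-MMP2, was 1.16 ± 0.04 in control, 2.65 ± 0.06 with PM2.5 and 2.77 ± 0.34 with lactoferrin then PM2.5 (SD, n = 3 each). These are ratios of RNA levels, computed from the chosen genes and given without a test.

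**Figure D2:**
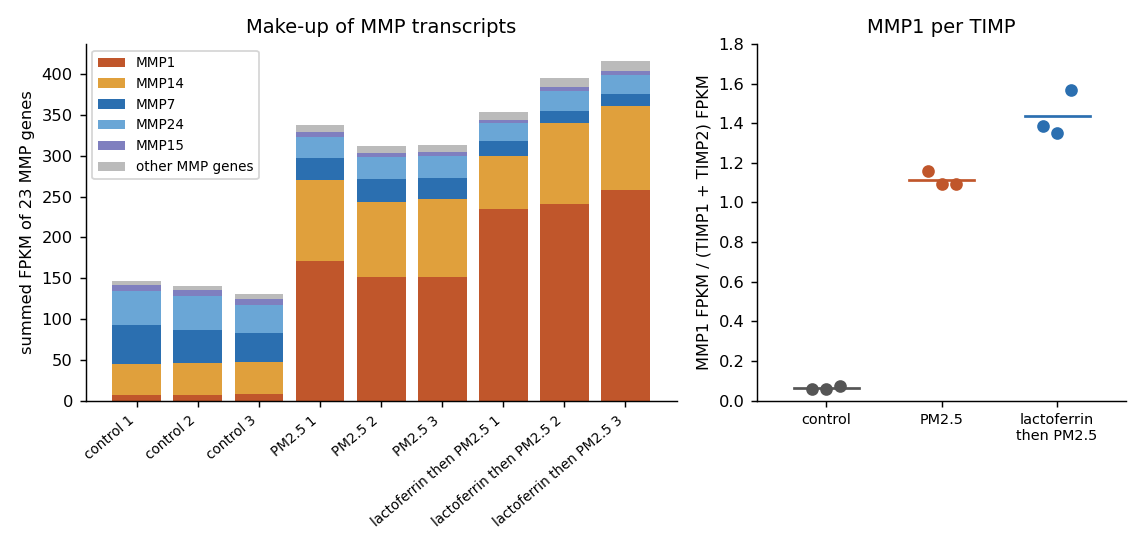
Left, summed FPKM of 23 MMP genes in each of the 9 libraries, as bars from 0 stacked by gene. Right, the ratio of MMP1 to the summed TIMP1 and TIMP2 (TIMP3 is listed at 0), with points for libraries and horizontal bars for group means. MMP1 takes 5.19% of the sum in control, 49.0% with PM2.5 and 63.0% with lactoferrin then PM2.5, and the ratio to TIMP1 and TIMP2 is between 1.09 and 1.57 in the 6 exposed libraries.

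The comparison of lactoferrin then PM2.5 with PM2.5 alone cannot tell pretreatment from the shorter time in PM2.5, 18 h against 24 h. It shares the PM2.5 libraries with the contrast that chose the genes. In limma 0 of the 7 tested members were past an adjusted p of 0.05, where 0.0484% of all tested genes, 7 of 14454, were. At an unadjusted p under 0.05 it was 4 of 7 (MMP1, MMP3, MMP7 and TIMP1), beside 12.2% of all tested genes. The same 4 genes had groups that did not overlap, beside 21.1%. With limma-voom on rebuilt fragments 3 of 7 were past the threshold, MMP1, MMP3 and MMP7, beside 0.118%. That was the highest count over the alternatives, and each of the others gave 0 or 1.

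MMP1 was 1.55 times higher in mean with lactoferrin then PM2.5 than with PM2.5, and library pairs gave 1.38 to 1.71. The log2 difference was 0.64 ± 0.10 (SE), with an adjusted p of 0.0779 in limma that ran from 0.0436 to 0.414 over 19 alternatives. Under these its value stayed between 0.60 and 0.72. MMP3 was 2.04 times higher in mean, with a log2 difference of 0.90 ± 0.12 (SE) and an adjusted p of 0.058 (0.0302 to 0.259 over the alternatives, limma). MMP7 was 41.6% lower, with a log2 difference of -0.75 ± 0.12 (SE) and an adjusted p of 0.0814 (0.0407 to 0.401, limma). None of the pretreated libraries came between the PM2.5 and control values for these 3 genes: each lay beyond PM2.5, on the side away from control.

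TIMP1 was 1.32 times higher in mean with pretreatment (log2 difference 0.41 ± 0.11, SE, adjusted p = 0.298 in limma, 0.094 to 0.722 over the alternatives). MMP10 differed by 0.35 ± 0.22 with a 95% interval of -0.14 to 0.84. For MMP14 the difference was -0.13 ± 0.15 (95% interval -0.47 to 0.21, adjusted p = 0.70 in limma). Without replicate 1 of lactoferrin then PM2.5 it turned to 0.06. TIMP2 differed by -0.18 ± 0.11 (95% interval -0.43 to 0.06), and by -0.07 without that library. MMP2, untested, overlapped between the exposed groups.

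**Figure D3:**
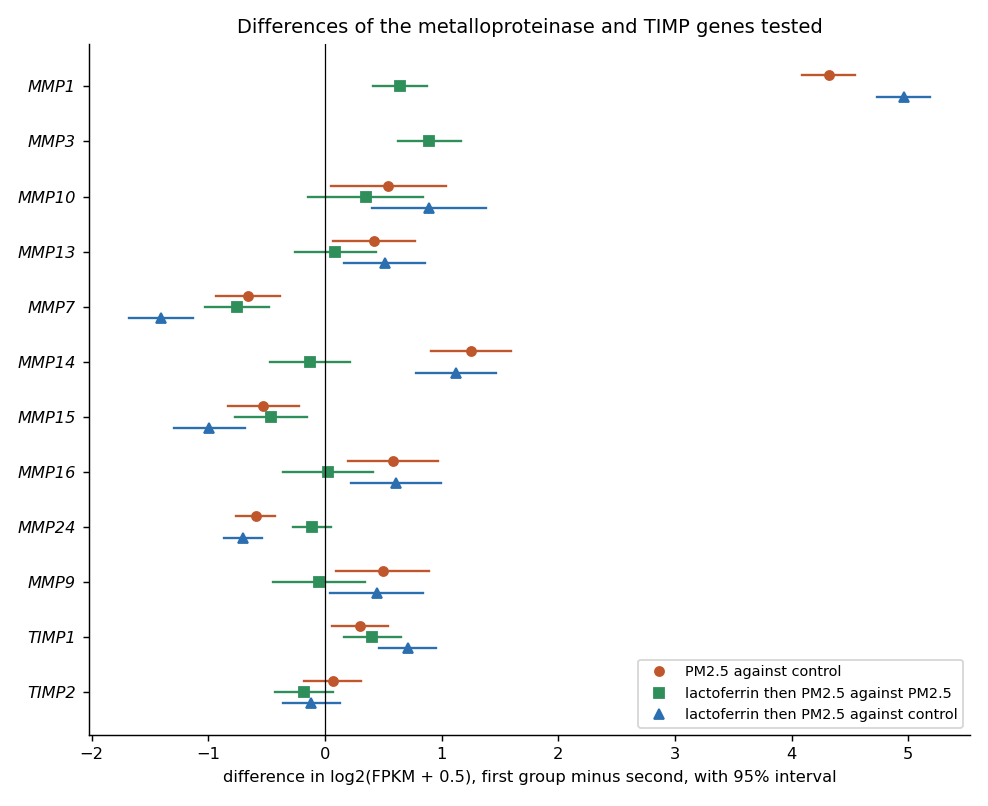
Fitted differences in log2(FPKM + 0.5) with 95% intervals for the 12 MMP and TIMP genes tested, for each pair of groups. MMP3 has no value against control, where it is listed at 0. MMP1 stands at 4.32 for PM2.5 against control, and the intervals of MMP14 and TIMP2 for pretreatment against PM2.5 include 0.

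Of the 18 MMP and TIMP genes outside the list, 5 passed the filter. With PM2.5 against control 1 rose and 2 fell (limma, adjusted p under 0.05), where 18.7% of all tested genes rose and 16.4% fell. MMP24, a membrane-type enzyme best known from neurons, fell from 40.8, 40.9 and 34.3 FPKM to 25.5, 26.8 and 26.4 (log2 difference -0.59 ± 0.07, SE, adjusted p = 0.000374). With lactoferrin then PM2.5 it measured 23.02, 24.8 and 24.4 FPKM. The antisense gene MMP24OS shares 18.1% of its exon bases, and their reads cannot be told apart without strand.

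MMP15, another membrane-type enzyme, fell from 7.98, 7.74 and 7.25 to 6.00, 4.97 and 5.03 FPKM with PM2.5 (-0.53 ± 0.14, SE, adjusted p = 0.0147 in limma). It was lower still with lactoferrin then PM2.5, at 2.83, 4.10 and 4.33 FPKM, with replicate 1 lowest. Against PM2.5 MMP15 differed by -0.46 ± 0.14 (SE, adjusted p = 0.311 in limma). Over 19 alternatives MMP15 ran from -0.55 to -0.30 there, with an adjusted p of 0.137 to 0.722 in limma. Against control, its fall with PM2.5 was not past the threshold without PM2.5 replicate 2 (-0.49) or replicate 3 (-0.48). MMP16, also membrane-type, rose from 1.32, 1.89 and 1.82 to 2.41, 3.03 and 3.07 FPKM (0.58 ± 0.17, SE, adjusted p = 0.0272). That call was lost without control replicate 1 (0.45), PM2.5 replicate 2 (0.54) or PM2.5 replicate 3 (0.54), and with no filter on low values (0.58, adjusted p = 0.08). So the membrane-type genes did not share a direction: MMP14 and MMP16 were higher with PM2.5, and MMP15 and MMP24 lower.

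MMP9, gelatinase B, measured 0.503 to 1.03 FPKM in control and 1.05 to 1.38 with PM2.5 (0.49 ± 0.18, SE, adjusted p = 0.0551 in limma). It was past the threshold without control replicate 3, the highest control (0.68), with no scaling (0.53) and with limma-voom (0.76). The antisense gene SLC12A5-AS1 shares 18.4% of its exon bases. MMP13, collagenase 3, measured 0.320 to 0.445 FPKM in control and 0.649 to 0.740 with PM2.5, a log2 difference of 0.42 ± 0.16 (SE). Like MMP3 and MMP10 it passed the filter only through the exposed groups, so no p against control is given. Between pretreatment and PM2.5 none of these 5 genes was past an adjusted p of 0.05 in limma, and 1, MMP15, had an unadjusted p under 0.05, beside 12.2%.

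MMP1, MMP3, MMP7 and MMP10 lie with other MMP genes in a cluster on the long arm of chromosome 11. Distances are from the MMP1 start in the plus-strand direction, counted in kb. MMP7 starts at -267.4, MMP10 at -17.5, MMP3 at 45.6 and MMP13 at 157.6. Of the cluster's other MMP genes, MMP20, MMP27, MMP8 and MMP12 stayed below the filter, at no more than 0.157 FPKM in any library. MMP10, MMP1, MMP3 and MMP13 had higher values with PM2.5 than in control, without overlap, and MMP7 lower ones. The nearest expressed gene beyond MMP7 is TMEM123, a surface receptor gene at -327.8. It fell with PM2.5 from 72.2 to 47.5 FPKM in mean (-0.65 ± 0.09, SE, adjusted p = 0.000816 in limma).

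Farther out, the inhibitor-of-apoptosis genes BIRC2 and BIRC3 also fell, by 0.81 ± 0.13 and 0.72 ± 0.16 on the log2 scale (SE, adjusted p = 0.00142 and 0.00841 in limma). YAP1, the Hippo pathway coactivator at -687.7, was 0.08 ± 0.13 above control, with an interval of -0.21 to 0.37. On the other side DCUN1D5, at 294.1, differed by 0.21 ± 0.12 (adjusted p = 0.203). Of the 16 genes listed for this region 10 were tested, and 2 were higher and 4 lower with PM2.5, beside 18.7% and 16.4% of all tested genes. The 2 higher were MMP1 and MMP3, and MMP7 was among the 4 lower. These counts thus rest partly on genes chosen with this contrast known, and nothing is read from them. MMP3, MMP10 and MMP13 were tested only because of their exposed libraries. Against PM2.5 alone, pretreatment gave 0 calls among the 10 tested genes in limma. At an unadjusted p under 0.05 there were 4, MMP1, MMP3 and MMP7 among them, beside 12.2% of all tested genes.

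**Figure D4:**
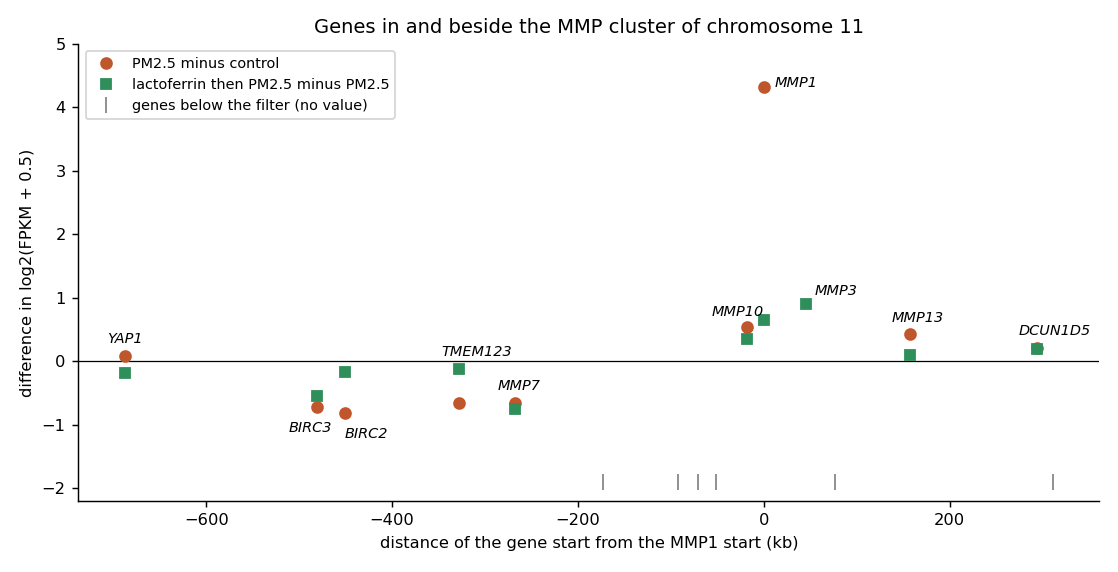
Fitted differences in log2(FPKM + 0.5) of the tested genes in and beside the MMP cluster, against the distance of each gene start from the MMP1 start in kb. Circles are PM2.5 minus control, squares lactoferrin then PM2.5 minus PM2.5, and ticks mark genes below the filter. MMP1 stands at 4.32, MMP7 and its neighbours TMEM123, BIRC2 and BIRC3 lie below 0 for PM2.5, and MMP3 has no circle because control is listed at 0.

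The genes whose profile was most like that of MMP1 were found by the Euclidean distance over the 9 libraries of log2 values, each relative to its control mean. They were ANGPTL4, an inhibitor of lipoprotein lipase (distance 0.484), HMOX1, heme oxygenase 1 (0.778), ATP6V0D2, a vacuolar ATPase subunit (1.361), and THBD, thrombomodulin (1.632). ATP6V0D2 and THBD had control means of 0.289 and 0.477 FPKM, so their steps from control depend on the 0.5 added. ANGPTL4 measured 1.35, 1.20 and 1.41 FPKM in control, 41.2, 33.5 and 36.8 with PM2.5, and 40.8, 53.4 and 53.4 with lactoferrin then PM2.5. Its pretreated replicate 1 lay inside the PM2.5 range, unlike MMP1. HMOX1 means were 49.7, 832 and 1399 FPKM in the 3 groups, and its libraries did not overlap between them.

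For MMP3 the nearest profiles were those of HSPA6, an inducible HSP70 chaperone (distance 0.396), FBXO32, a ubiquitin ligase subunit (0.75), G0S2, an inhibitor of adipose triglyceride lipase (0.809), and ARHGAP22, a GTPase-activating protein (0.88). As MMP3 is listed at 0 in control, its step from control in this measure is set by the 0.5 added, and another constant could name other genes. HSPA6 measured 0.2496, 0.154 and 0.170 FPKM in control, 3.03, 2.84 and 3.14 with PM2.5, and 6.23, 6.48 and 6.91 with lactoferrin then PM2.5. Its step between the exposed groups was 1.01 ± 0.09 (SE) in log2, and that of MMP3 0.90 ± 0.12. HSPA6 was picked for nearness over these same libraries, so a similar step was built into the choice. The distance is a description over 9 libraries that share their groups.

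Proteins that activate, inhibit or clear metalloproteinases were taken as a list of 27 genes, of which 21 were tested. With PM2.5 12 rose and 4 fell, beside 18.7% and 16.4% of all tested genes, and their median log2 difference was 0.38, where that of all tested genes was 0.00. PLAU, the urokinase gene whose product makes plasmin, rose from 33.4 ± 1.48 to 100.5 ± 3.03 FPKM (SD, n = 3). CTSL, a lysosomal cysteine protease gene, rose from 51.1 to 198 FPKM in mean, and TFPI2, which encodes a secreted plasmin inhibitor, from 96.1 to 315 FPKM. THBS1, the thrombospondin 1 gene, fell from 31.2 to 3.40 FPKM. The membrane-anchored inhibitor gene RECK, chosen after its values were seen, fell from 2.002 to 1.09 FPKM (-0.71 ± 0.14, SE). For these 5 the adjusted p in limma was 4.26e-06, 7.93e-06, 5.81e-06, 6.1e-06 and 0.00404, in that order.

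LCN2, lipocalin 2, whose product forms a complex with MMP9, was the 1 gene of the lists described here past an adjusted p of 0.05 between pretreatment and PM2.5. Its mean was 2.101 FPKM in control, 4.86 with PM2.5 and 1.97 with lactoferrin then PM2.5, a log2 difference of -1.11 ± 0.10 (SE, adjusted p = 0.00615, limma). It thus lay near control with pretreatment, while MMP1, MMP3, MMP7 and TIMP1 lay farther from control than with PM2.5. The differences of those MMP and TIMP genes from PM2.5 were not past the threshold in limma. The adjusted p of LCN2 reached 0.0791 over 19 alternatives, and the call was lost when the PM2.5 group lacked replicate 1 (-1.05) or 2 (-1.08), or the pretreated group replicate 2 (-1.08).

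Transcription factors known to act on MMP promoters were a list of 30 genes, 28 of them tested. With PM2.5 15 rose and 4 fell, beside 18.7% and 16.4% of all tested genes, with a median log2 difference of 0.39. ETV4 and ETV5, ETS factors of the PEA3 group, rose from 1.79 to 7.98 and from 3.60 to 12.7 FPKM in mean. ELF3, an epithelial ETS factor, fell from 8.50 to 2.36 FPKM and SNAI1, a zinc-finger repressor, from 25.5 to 12.3. For these 4 the adjusted p in limma was 4.26e-06, 4.36e-06, 6.61e-06 and 1.36e-05. The FOS and JUN genes of the list were named after their values were seen. FOSB rose by 1.92 ± 0.16, FOSL1 by 1.76 ± 0.16, JUN by 0.60 ± 0.08 and FOS by 0.38 ± 0.10 (SE), while JUNB fell by 0.30 ± 0.09. FOSL2 (-0.14 ± 0.17) and JUND (-0.21 ± 0.10) did not pass the threshold. Between pretreatment and PM2.5 FOSL1 differed by -0.01 ± 0.16 and JUN by 0.02 ± 0.08, with 95% intervals of -0.36 to 0.34 and -0.15 to 0.20. None of the 28 was past an adjusted p of 0.05 there in limma, and 8 had an unadjusted p under 0.05, beside 12.2%.

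Collagens, laminins and other matrix proteins that metalloproteinases cut were 38 genes, 29 of them tested. With PM2.5 6 rose and 13 fell, beside 18.7% and 16.4% of all tested genes, with a median of -0.63. COL4A5 and COL5A2 passed the filter only through control, so their direction was tied to the filter. COL1A1, a chain of type I collagen, fell from 6.77 to 1.42 FPKM in mean, COL12A1 from 6.73 to 2.28 and SPARC from 283 to 142.5. LAMB3, a laminin beta chain, rose from 9.12 to 30.7 FPKM. For these 4 the adjusted p in limma was 1.13e-05, 0.000876, 8.71e-05 and 1.94e-05. Between pretreatment and PM2.5 the median was -0.46, where that of all tested genes was 0.01, and 0 of the 29 had a positive difference. None was past an adjusted p of 0.05 in limma, and 14 had an unadjusted p under 0.05, beside 12.2%. Replicate 1 of lactoferrin then PM2.5 was low for many of them: FN1, fibronectin, measured 875 FPKM there and 1549 and 1823 in the other 2. Without that library the median was -0.22, and COL5A2, LAMB1 and LAMB3 had positive differences. COL1A1 is also among the fibroblast markers, of which 2 of the 4 tested rose and 2 fell with PM2.5. LUM was at 42.95 FPKM in control and 64.88 with PM2.5 in mean, and TAGLN at 8.23 and 2.21. Their part in the matrix genes was not tested.

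Of 28 ADAM and ADAMTS protease genes 13 were tested. With PM2.5 3 rose and 5 fell, beside 18.7% and 16.4% of all tested genes, and the median was -0.01. ADAMTS7 passed the filter only through control and ADAMTS14 only through exposed libraries, so their direction was tied to the filter. Without control replicate 3 the counts were 2 and 2 of 12 tested. ADAMTS3, a procollagen N-propeptidase gene, fell from 23.1 to 5.27 FPKM in mean and ADAMTS15, an aggrecanase-type gene, from 3.23 to 0.531. ADAM12 rose by 0.55 ± 0.11 in log2 (SE) to 1.93 FPKM and ADAM15 from 12.9 to 18.9 FPKM, and the ADAM15 call was lost without PM2.5 replicate 1 (0.45 in log2). For these 4 the adjusted p in limma was 8.52e-05, 7.47e-05, 0.00545 and 0.0148. Between pretreatment and PM2.5 none of the 13 was past the threshold in limma, and 4 had an unadjusted p under 0.05, beside 12.2%.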

How the data were processed

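The authors deposited 1 table per sample of FPKM for 58884 Ensembl genes; the unit was inferred from the values. Per the submitters' processing notes the work used featureCounts 1.6.0, HISAT2 2.1.0, Trimmomatic 0.38 and DESeq2 1.22.1, build GRCh38. Settings and the annotation release: not given in the sources used here. Fragments were rebuilt from FPKM and GENCODE release 29 exon lengths (58611 genes matched): 85.9% to 87.2% of values of at most 200 fragments came out whole within 0.05. FPKM were divided by weighted TMM factors (0.943 to 1.037), and log2(FPKM + 0.5) was fitted in limma 3.58.1 (R 4.3.3; trend and robust), with 3 group means over all 9 libraries. Benjamini-Hochberg adjustment ran over 14454 genes with at least 0.5 FPKM in at least 3 libraries. Fold changes on this scale understate those of low genes.

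The members and gene lists were chosen with earlier results of these data known. Text names the members, other tested MMP and TIMP genes, the tested genes of the chromosome 11 list, the 4 genes of each further list with the smallest p for PM2.5 against control, listed genes called with pretreatment, and the 4 profiles nearest to MMP1 and to MMP3; exceptions are marked. Promoters of 5 of the 9 members matched in a RefSeq table. The fit was tested on simulated data for PM2.5 against control (14304 genes): recovery was 52% at 1.5-fold and 92% at 2-fold. The simulation changed far fewer genes than were called here, all of them well covered, with a single dispersion of 0.00973. Its rates are therefore not the power of the real comparison, least of all for genes of low level. Alternatives covered scaling, filters, pseudocounts, limma-voom, a replicate block and left-out libraries. Recounting the gene lists without control replicate 3 and lactoferrin replicate 1 was chosen after seeing the data.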

Additional observations from a re-analysis of the deposited data

How the results depend on the processing

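Of the gene values named for PM2.5 against control, 620 over all alternatives kept direction and side of the threshold, 15 crossed to past it, 7 lost it and 1 reversed: YAP1 without control replicate 3 (-0.004; up to 0.15 without another library). The members past the threshold there numbered 4 to 6 over the alternatives. For lactoferrin then PM2.5 against PM2.5, the 7 genes past the threshold became 17 with limma-voom, 4 with only the 6 libraries compared, 12 without control replicate 3 and lactoferrin replicate 1 together, and 0 to 6 when 1 library was left out (0 when replicate 1 or 2 of PM2.5 or replicate 2 of pretreatment was absent; 3 without PM2.5 replicate 3; 4 without control replicate 1 or 2). Members past it went from 0 to 1 with no scaling (MMP3), 1 with a pseudocount of 1 (MMP3), 3 with limma-voom, and 1 without those 2 libraries together (MMP7). Reversals there, on the log2 scale, were MMP9 without PM2.5 replicate 1 (0.022) and without the 2 libraries together (0.005), MMP13 without lactoferrin replicate 2 (-0.03), MMP14 without lactoferrin replicate 1 (0.064) and without both (0.08), and MMP16 without PM2.5 replicate 1 (-0.056) or lactoferrin replicate 3 (-0.147). Against control, TIMP2 with lactoferrin then PM2.5 turned to 0.009 without both. With 1 library left out, MMP9 ranged from -0.128 to 0.022, MMP13 from -0.03 to 0.175, MMP14 from -0.232 to 0.064 and MMP16 from -0.147 to 0.134. The causes were not tested. Leaving out 1 library kept the ratio of MMP1 to the TIMPs between 0.057 and 0.0653 in control, 1.09 and 1.13 with PM2.5, and 1.37 and 1.48 with lactoferrin then PM2.5.

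The labels number the replicates without saying whether equal numbers belong together. Same-numbered libraries correlated in their deviations at -0.068 to 0.179, and 2 of 9 pairs exceeded 0.1. Differently numbered libraries of different groups correlated at -0.179 to 0.136. With 3 libraries per group, each centred on its group mean, these correlations cannot settle whether the numbers pair the samples. With a replicate block, 13 genes were past the threshold for lactoferrin then PM2.5 against PM2.5, 1 of them a member (MMP7).

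Depth limits MMP2, MMP3 and MMP10, which rest on at most 161 rebuilt fragments per library, and 3 libraries per group limit all comparisons.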
